A study of Mus musculus with 9 samples.

Results

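The 34 imprinted genes described here were chosen by symbol from a table of FPKM of whole mouse kidneys at E15.5 (E, embryonic day), and each matched 1 of the 24138 loci. The question of the study is what is lost when *Ntn1*, which encodes the secreted guidance cue netrin 1, is deleted from Foxd1+ stromal progenitors. There were 9 libraries, 3 of each genotype. MUT kidneys were *Foxd1GC/+;Ntn1fl/fl*, with a Cre-GFP fusion in 1 *Foxd1* allele and 2 floxed *Ntn1* alleles. HET kidneys were *Foxd1GC/+;Ntn1fl/+*, with the same Cre allele and 1 floxed allele, and WT kidneys were *Ntn1fl/fl* with no Cre, so the kidneys that carry Cre also lack 1 intact *Foxd1* allele. All lines were kept on C57Bl6/J, and kidneys came from 3 crosses of *Ntn1fl/fl* with *Foxd1GC/+;Ntn1fl/+* mice. Which cross or embryo a library came from is not given in the sources used here, so the p-values measure only the spread between these samples. FPKM are fragment counts scaled to transcript length and to the size of the library. Cre acts in the stromal lineage while RNA was read from all kidney cells, and fewer cells of a type cannot be told apart from less RNA per cell.

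An imprinted gene is transcribed mainly or only from the copy inherited from one parent. One parental copy is marked by DNA methylation laid down in the egg or sperm, and the zinc finger protein encoded by *Zfp57* helps to keep that mark after fertilization. Imprinted genes sit in clusters in which a control region, often the promoter of a long non-coding RNA, sets both directions of expression. Many act on fetal growth: paternally expressed *Igf2* promotes it, and maternally expressed *Igf2r*, *Grb10* and *Cdkn1c* restrain it. By textbook assignment 21 of the 34 are paternally and 12 maternally expressed, and *Gnas* gives maternal, paternal and biallelic transcripts. The animals were inbred and the values are totals over both copies, so nothing here measures which copy was read.

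Several members are hosts of microRNAs, and mature sequences (RefSeq, GRCm38.p6) are given for the hosts whose levels are described below, with the seed, bases 2 to 8, in capitals. In the interval from *Meg3* to *Mirg* on chromosome 12, 57 hairpins are annotated, 54 of them on the strand of *Meg3*, *Rian* and *Mirg*, and 14 of those are within *Mirg* itself. The 9 mature sequences shown have 9 different seeds, and only that of miR-410-3p is shared with other mature sequences in the table, those of miR-344d-3p and miR-344e-3p. The miR-675, miR-770-5p and miR-410-3p sequences fall in annotated exons of their hosts and the others in introns. The libraries were made from poly(A) RNA and hold no measure of the mature microRNAs.
H19, miR-675-5p, chr7:142577112-142577133, minus strand: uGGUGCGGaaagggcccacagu
H19, miR-675-3p, chr7:142577078-142577099, minus strand: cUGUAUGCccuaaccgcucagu
Igf2, miR-483-3p, chr7:142654932-142654952, minus strand: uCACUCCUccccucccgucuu
Mest, miR-335-5p, chr6:30741314-30741336, plus strand: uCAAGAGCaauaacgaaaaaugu
Meg3, miR-770-5p, chr12:109563710-109563731, plus strand: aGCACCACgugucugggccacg
Rian, miR-370-3p, chr12:109618305-109618326, plus strand: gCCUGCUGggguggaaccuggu
Mirg, miR-412-5p, chr12:109743303-109743325, plus strand: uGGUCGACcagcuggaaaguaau
Mirg, miR-369-3p, chr12:109743466-109743486, plus strand: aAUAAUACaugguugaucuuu
Mirg, miR-410-3p, chr12:109743764-109743784, plus strand: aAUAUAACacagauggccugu

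Start sites are shown for 2 sets of members whose levels are set side by side below. Windows from 250 bases before to 50 bases after the RefSeq start were at hand for 28 of the 34 genes, and CpG dinucleotides, the letters CG, which read alike on both strands, were counted in them. These 28 windows held a median of 12 CpG, against 7 in all 32851 windows. Capitals mark each CpG. *Meg3* and *Rian*, both maternally expressed non-coding RNAs on the plus strand of chromosome 12, are shown because their levels are set side by side across libraries below. The *Meg3* window has 13 CpG, and 37.9% of all windows have at least as many, whereas the *Rian* window has 0.
Meg3, chr12:109540746-109541045, plus strand: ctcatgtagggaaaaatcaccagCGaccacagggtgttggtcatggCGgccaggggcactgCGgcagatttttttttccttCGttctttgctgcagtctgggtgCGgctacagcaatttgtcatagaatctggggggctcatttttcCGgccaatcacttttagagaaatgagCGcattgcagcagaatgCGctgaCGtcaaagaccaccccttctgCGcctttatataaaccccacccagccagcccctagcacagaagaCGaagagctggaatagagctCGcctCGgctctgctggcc
Rian, chr12:109603695-109603994, plus strand: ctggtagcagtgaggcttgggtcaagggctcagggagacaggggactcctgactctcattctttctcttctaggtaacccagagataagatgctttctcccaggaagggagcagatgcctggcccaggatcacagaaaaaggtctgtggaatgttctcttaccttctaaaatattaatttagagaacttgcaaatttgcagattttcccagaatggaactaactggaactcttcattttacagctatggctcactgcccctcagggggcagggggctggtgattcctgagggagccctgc
*Peg3* and *Usp29*, paternally expressed and transcribed in opposite directions, have 146 bases between their starts, and this stretch, with 5 CpG, is shown on the plus strand because the control region of the cluster overlaps these starts.
Peg3 to Usp29, chr7:6730432-6730577, plus strand: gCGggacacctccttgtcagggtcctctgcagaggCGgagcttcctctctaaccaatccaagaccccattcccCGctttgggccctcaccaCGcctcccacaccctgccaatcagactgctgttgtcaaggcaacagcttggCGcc

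Some HET libraries stood apart in other tissues' genes. All 12 liver markers were highest in HET replicate 2 (HET-2), where their summed level was 852 FPKM, against 34.1 to 60 in the other 8 libraries. *Alb*, the plasma albumin gene, was at 244 FPKM in HET-2 and at most 4.77 elsewhere, and *Th*, the enzyme that starts catecholamine synthesis, at 4.93 against at most 0.359. All 6 skeletal muscle markers were highest in HET-3, with a sum of 139 FPKM against 4.72 to 13.8, and *Acta1*, skeletal muscle actin, was at 41.5 FPKM against at most 1.95. The 11 kidney markers summed to 406 to 549 FPKM in all libraries, and of the 8 adrenal cortex markers 7 stayed under 1 FPKM in every library. Yet 6 of these 8 were highest in HET-2, among them *Hsd3b1* at 0.921 FPKM against at most 0.0342 elsewhere. The others, *Star* and *Mc2r*, were highest in HET-3 and MUT-3. The 7 markers of neurons and catecholamine cells summed to 28.2 FPKM in HET-2 and 7.22 to 12.4 elsewhere, the erythroid markers to 3432 and 1855 to 2251, and the 4 gonad markers to 5.98 to 9.61 in all libraries. The 6 stroma markers summed to 241 to 350 FPKM in WT, 266 to 303 in HET and 336 to 377 in MUT, so that MUT lay above HET without overlap. Most of this sum was *Col1a1*, at 143 to 173 FPKM in HET and 214 to 240 in MUT. *Foxd1* was also higher in every MUT than in every HET library, whereas *Pdgfra*, *Pdgfrb*, *Meis1* and *Tbx18* overlapped. The sum is thus no measure of all stroma markers. Its part in the differences of MUT from HET given below, those of *Igf2*, *Ndn* and *Impact* included, was not tested. Relative depth, read from the smallest steps of low values, ranged from 0.57 (WT-2) to 1.28 (MUT-1) of that of WT-1. *Ntn1* was at 26.1, 28.9 and 17.8 FPKM in WT, 12.3, 12 and 16.5 in HET and 10.8, 16.5 and 11 in MUT, so that HET and MUT overlapped, and a value over the whole locus does not show whether the floxed exon is read. *Foxd1* was at 25.8 to 33.7 FPKM in WT, 20.2 to 21.7 in HET and 22.5 to 24.8 in MUT.

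Several imprinted genes were among the most abundant transcripts of the E15.5 kidney. As FPKM are per length, levels of different genes may be set side by side. Of the 34 genes 22 had a mean over the 9 libraries of at least 5 FPKM (64.7%), against 41.3% of all loci. Together the 34 took 1.01% to 1.21% of the summed FPKM of a library. *H19*, a maternally expressed non-coding RNA, was the highest, at 1840.1, 1685 and 1840.0 FPKM in WT, 1772, 1911 and 1883 in HET and 1796, 2234 and 1875 in MUT, and ranked between 10 and 33 of all loci. *Gnas*, which encodes the stimulatory G protein alpha subunit, was next at 919 FPKM, followed by *Mest*, a hydrolase family gene named for its expression in mesoderm, at 915, *Igf2* at 566, *Cdkn1c* at 485 and *Grb10* at 252.
*H19* exceeded *Gnas* in all 9 libraries, whereas *Gnas* exceeded *Mest* in 5 of 9 and their ranges overlapped. *Mest* exceeded *Igf2* in all 9, *Igf2* exceeded *Cdkn1c* in 8 of 9, and *Cdkn1c* and *Grb10* were each above the next gene in all 9. From *Ndn* down to *Snrpn* neighbours in the order overlapped in their ranges. *Snrpn* (12.1 FPKM) and *Zim1* (6.45 FPKM) did not overlap, and neither did *Zdbf2* and *Magel2*.
The median level was 23.4 FPKM over the 12 maternally expressed and 15.9 over the 21 paternally expressed genes. Under 1 FPKM were *Ascl2*, maternally expressed, and the paternally expressed *Magel2*, *Usp29*, *Kcnq1ot1*, *Nap1l5* and *Rtl1*.

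**Figure D1:**
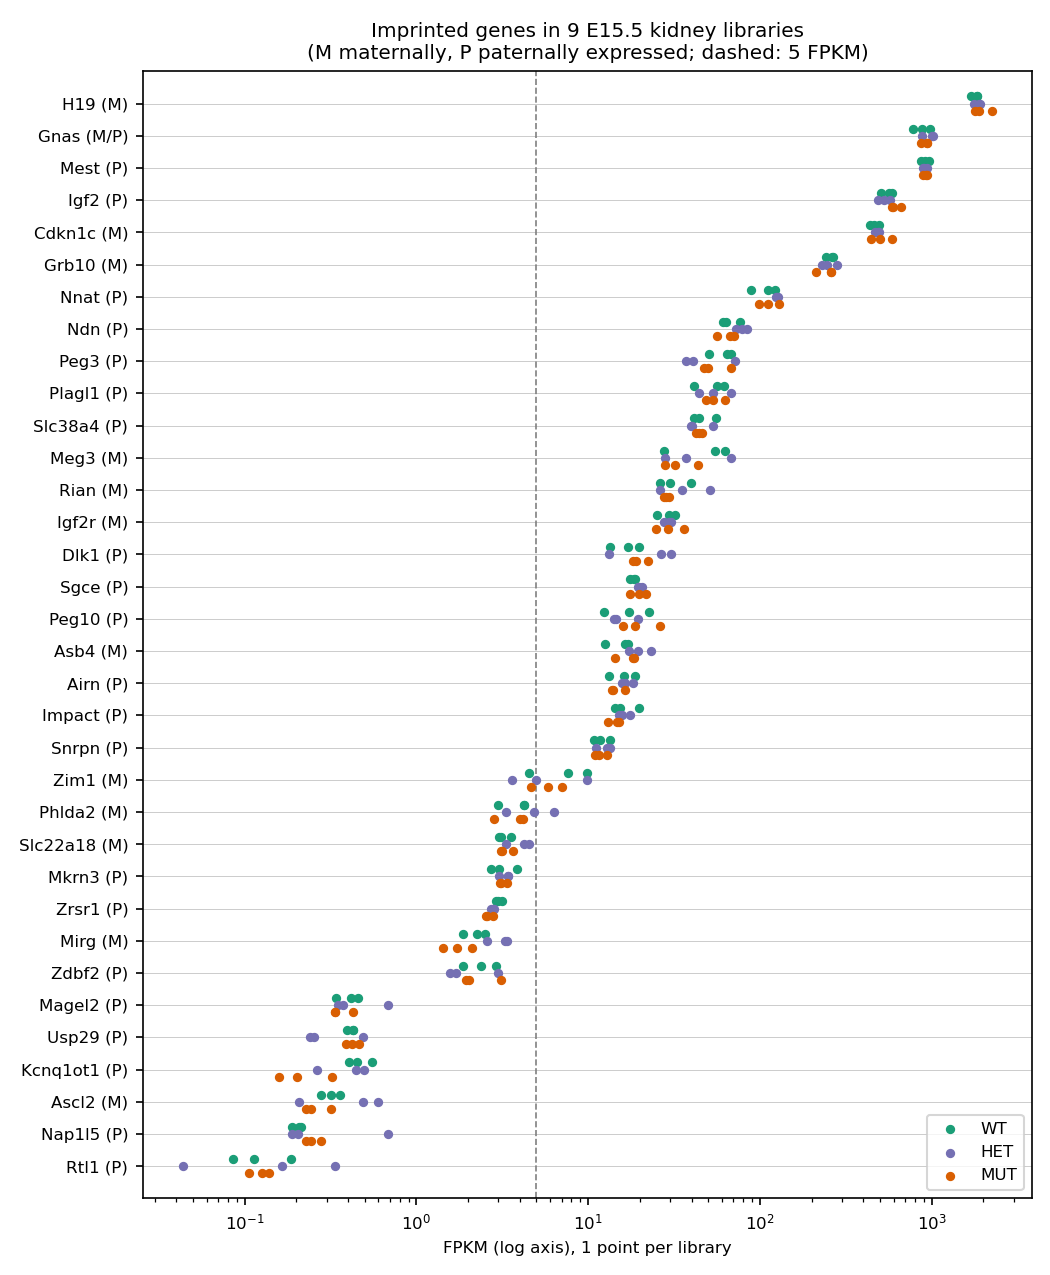
FPKM on a log axis of the 34 imprinted genes in each library, with 1 point per library, genes ordered by mean level and genotypes in 3 colours (green WT, purple HET, orange MUT). *H19* lies at 1685 to 2234 FPKM and *Rtl1* at 0.0439 to 0.335, and the 22 genes right of the dashed line have a mean of at least 5 FPKM.

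No imprinted gene differed between genotypes after adjustment. In each comparison the same 22 genes passed the minimum of 5 FPKM in either genotype, 13 paternally and 8 maternally expressed and *Gnas*, and were fitted with all other loci by limma on log2(FPKM + 1). In MUT against HET 0 of the 10081 loci tested had a Benjamini-Hochberg adjusted p under 0.05 (0%), and 636 (6.31%) had an unadjusted p under 0.05. All MUT libraries were above all HET libraries at 5.19% of loci and below them at 4.5%. In MUT against WT the counts were 0 of 10096 (0%) and 65 (0.644%), with MUT wholly above at 1.32% and wholly below at 1.34%. In HET against WT they were 0 of 10105 (0%) and 108 (1.07%), with HET wholly above at 2.15% and wholly below at 1.06%. In simulated data 200 loci were changed 1.2-, 1.5-, 2- or 4-fold, and values were drawn independently with the spread of each locus. The fit called 2%, 0% and 2% of the loci changed 1.2-fold and 46%, 28% and 38% of those changed 1.5-fold in the 3 comparisons in that order. Deviations shared by many loci of a library were not simulated, so these shares may be too high for the real data.
Of the 22 imprinted genes 10 had a positive and 12 a negative log2 difference of MUT from HET (45.9% positive over all loci). The median was -0.04 (-0.02 over all loci), and 1, *Ndn*, had an unadjusted p under 0.05. In MUT against WT 12 were positive and 10 negative (48.7% positive over all loci), with a median of 0.02 and none with an unadjusted p under 0.05. In HET against WT 13 were positive and 9 negative (52.4% positive over all loci), with a median of 0.05 (0.01 over all loci), and 1, *Asb4*, had an unadjusted p under 0.05. Libraries did not overlap for 1 gene above and 2 below in MUT against HET, for 0 in MUT against WT and for 3 above and 0 below in HET against WT. Read against all loci, 1 of 22 is close to the 5.19%, while 2 of 22 and 3 of 22 are above the 4.5% and the 2.15%, and whether these shares differ was not tested. The paternally expressed genes had a median of -0.02, 0.01 and 0.05 in the 3 comparisons in that order, and the maternally expressed -0.01, -0.02 and 0.04. A difference that misses the threshold is not shown to be absent. The altered genes themselves missed it, although their libraries did not overlap. *Ntn1* differed in MUT from WT by -0.87 ± 0.20 (SE, log2; adjusted p = 0.9998, limma). *Foxd1* differed in HET from WT by -0.52 ± 0.12 (SE, log2; adjusted p = 0.998, limma). Of the 66 intervals (95%) of the differences of the 22 imprinted genes, 65 lay within a 2-fold change in either direction and 50 within a 1.5-fold change.

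**Figure D2:**
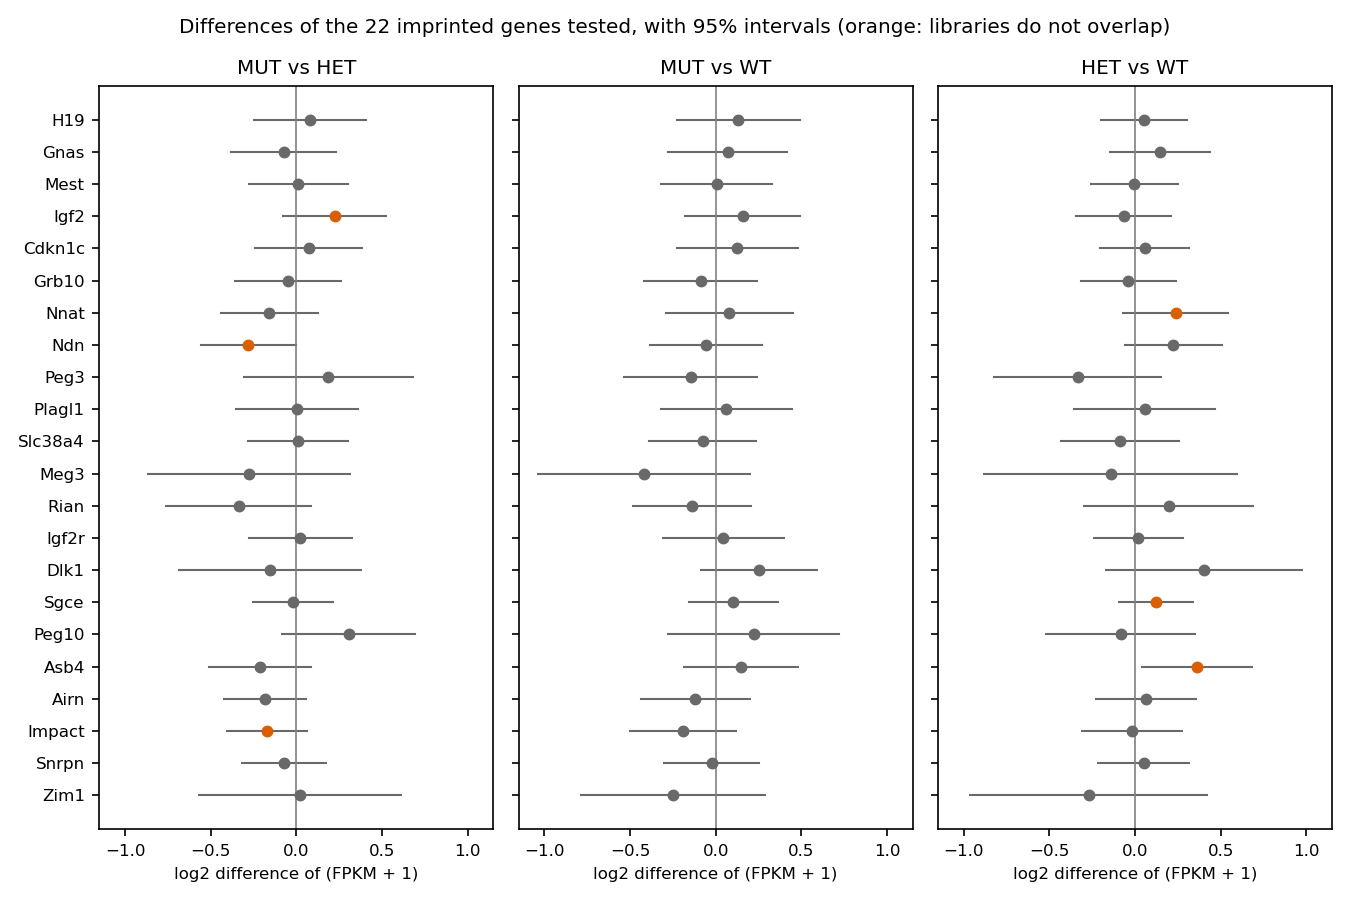
Difference on the log2(FPKM + 1) scale with its 95% interval from limma for the 22 imprinted genes tested, in 3 panels for MUT against HET, MUT against WT and HET against WT; orange points mark genes whose 3 libraries of each genotype do not overlap. All intervals span 0 except those of *Ndn* in MUT against HET and *Asb4* in HET against WT, and the widest belong to *Meg3*, *Zim1* and *Dlk1*.

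Among the growth genes, *Igf2* was higher in every MUT than in every HET library. *Igf2* encodes the main fetal growth factor, whose signal is received by the *Igf1r* and insulin receptors. It lies on the minus strand of chromosome 7 (chr7:142650766-142666816, GRCm38), with *H19* at chr7:142575529-142578143. *Igf2* was at 563, 591 and 505 FPKM in WT, 489, 525 and 571 in HET and 598, 667 and 585 in MUT. The MUT libraries stood above those of HET by a narrow margin and overlapped those of WT. The difference from HET was 0.22 ± 0.14 (SE) on the log2 scale, with an interval of -0.08 to 0.52 and an adjusted p of 0.738 (limma). The MUT and HET libraries overlapped after quantile normalization and after correction for GC content and transcript length. The difference was larger after quantile normalization, 0.31 (under 0.05 before adjustment, limma), and smaller after the correction, 0.17.
*H19*, which shares enhancers with *Igf2* and is read from the other parental copy, differed between MUT and HET by 0.08 ± 0.15 (SE, log2), and by -0.02 without MUT-2. The ratio of *H19* to *Igf2* within a library was 3.27, 2.85 and 3.64 in WT, 3.62, 3.64 and 3.3 in HET and 3, 3.35 and 3.21 in MUT. The ratio overlapped between all genotypes (exact permutation p = 0.2 for MUT against HET, two-sided, where 3 against 3 cannot give less than 0.1).

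The libraries of the growth-restraining genes overlapped between all genotypes. *Cdkn1c*, an inhibitor of cyclin-dependent kinases, was at 438, 460 and 494 FPKM in WT, 490, 491 and 465 in HET and 444, 584 and 500 in MUT. MUT-2 lay above all others, and MUT-3 just above all WT and HET libraries, while MUT-1 lay among them. *Grb10*, an adaptor that dampens insulin and IGF signalling, was at 244, 267 and 265 FPKM in WT, 246, 231 and 279 in HET and 259, 213 and 261 in MUT. Its lowest and highest libraries were MUT-2 and HET-3. *Igf2r*, which takes up and clears *Igf2*, ranged from 24.7 to 36.3 FPKM, and *Airn*, the antisense RNA that silences the paternal *Igf2r* copy, from 13.3 to 18.9 FPKM. The difference of MUT from HET was -0.18 ± 0.11 for *Airn* (SE, log2; adjusted p = 0.738, limma), and -0.05 after correction for GC content and transcript length. *Airn* overlaps *Igf2r* on the opposite strand and both are listed with the same span, and whether counting used strand is not stated, so their reads may be split between them. *Plagl1*, a zinc finger factor of the growth network, ranged from 41.3 to 68.3 FPKM with its highest library in HET-3.

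*Ndn* was lower in every MUT than in every HET library. *Ndn*, a MAGE family gene of the region lost in Prader-Willi syndrome, is expressed from the paternal copy and lies on the plus strand at chr7:62346569-62350262. It was at 63.6, 76.2 and 61.4 FPKM in WT, 84.3, 72.4 and 78.2 in HET and 56, 67.1 and 70.2 in MUT. The lowest HET library lay just above the highest MUT library, and WT overlapped both. The log2 difference of MUT from HET was -0.28 ± 0.13 (SE), with an interval from -0.56 to -0.003 and an adjusted p of 0.738 (under 0.05 before adjustment, limma), and that of HET from WT was 0.22 ± 0.13 (SE). Both comparisons share the HET libraries. The direction held in every alternative run, with differences of MUT from HET between -0.39 and -0.18, the smallest without MUT-1. In the runs that leave libraries out it could not turn, because the MUT and HET libraries do not overlap.
Of the other members of this region on chromosome 7, *Snrpn*, which encodes a spliceosome protein, ranged from 10.8 to 13.5 FPKM. *Magel2*, the MAGE gene beside *Ndn*, ranged from 0.335 to 0.688 FPKM and *Mkrn3*, a RING finger ubiquitin ligase gene, from 2.72 to 3.85. The highest library was HET-3 for *Magel2*, WT-3 for *Mkrn3* and WT-2 for *Snrpn*.

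*Impact*, paternally expressed on chromosome 18 and a regulator of translation under amino acid shortage, was at 14.3, 15.4 and 19.9 FPKM in WT, 15.8, 15.1 and 17.5 in HET and 14.8, 13 and 15 in MUT. All MUT libraries lay below all HET libraries, with MUT-3 just under HET-2 at 15.1, and WT overlapped both. The difference of MUT from HET was -0.17 ± 0.11 (SE, log2; adjusted p = 0.738, limma), and -0.11 without MUT-2. After correction for GC content and transcript length it was -0.20 (under 0.05 before adjustment, limma).

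HET libraries lay above all WT libraries for *Asb4*, *Nnat* and *Sgce*. *Asb4*, maternally expressed and a substrate adaptor of a ubiquitin ligase (chr6:5383386-5433022, plus strand), was at 12.5, 16.4 and 17.1 FPKM in WT, 19.5, 17.2 and 23.3 in HET and 18.4, 14.4 and 18.5 in MUT. HET-2 exceeded WT-3 only slightly, and MUT overlapped both. The difference of HET from WT was 0.36 ± 0.14 (SE, log2), with an interval of 0.04 to 0.68 and an adjusted p of 0.998 (under 0.05 before adjustment, limma), and that of MUT from HET was -0.21 ± 0.14 (SE). Without WT-1 the first was 0.23, and the second was -0.10 without HET-3 or without MUT-2.
*Nnat*, a paternally expressed proteolipid gene within an intron of *Blcap*, was at 89.1, 123 and 111 FPKM in WT, 124, 127 and 126 in HET and 98.7, 112 and 129 in MUT. The HET libraries were close together and WT-2 came near them. Its difference of HET from WT was 0.24 ± 0.14 (SE, log2; adjusted p = 0.998, limma), and 0.11 without WT-1 and 0.09 after correction for GC content and transcript length.
*Sgce*, the sarcoglycan gene that starts beside *Peg10* and runs the other way, was at 17.4, 18.6 and 18.6 FPKM in WT, 19.4, 20.6 and 19.7 in HET and 17.6, 21.6 and 19.8 in MUT. Its difference of HET from WT was 0.12 ± 0.10 (SE, log2; adjusted p = 0.998, limma), and 0.06 after the same correction. With HET-1 as the only HET library the differences of HET from WT were 0.34 for *Asb4*, 0.22 for *Nnat* and 0.09 for *Sgce* (log2). Those of MUT from HET were 0.33 for *Igf2*, -0.39 for *Ndn* and -0.14 for *Impact* (log2). Their directions were fixed in advance, because the libraries of these genes do not overlap in these comparisons. After correction for GC content and transcript length only *Asb4* of *Asb4*, *Nnat* and *Sgce* still had no overlap. *Peg10*, a retrotransposon-derived gene best known from placenta, had the largest difference of MUT above HET among the 22, 0.31 ± 0.18 (SE, log2; adjusted p = 0.738, limma). It was at 22.6, 17.3 and 12.3 FPKM in WT, 14.5, 14.1 and 19.6 in HET and 26.3, 18.7 and 16 in MUT, with overlap between all genotypes. The difference was 0.11 without MUT-1, the highest library.

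**Figure D3:**
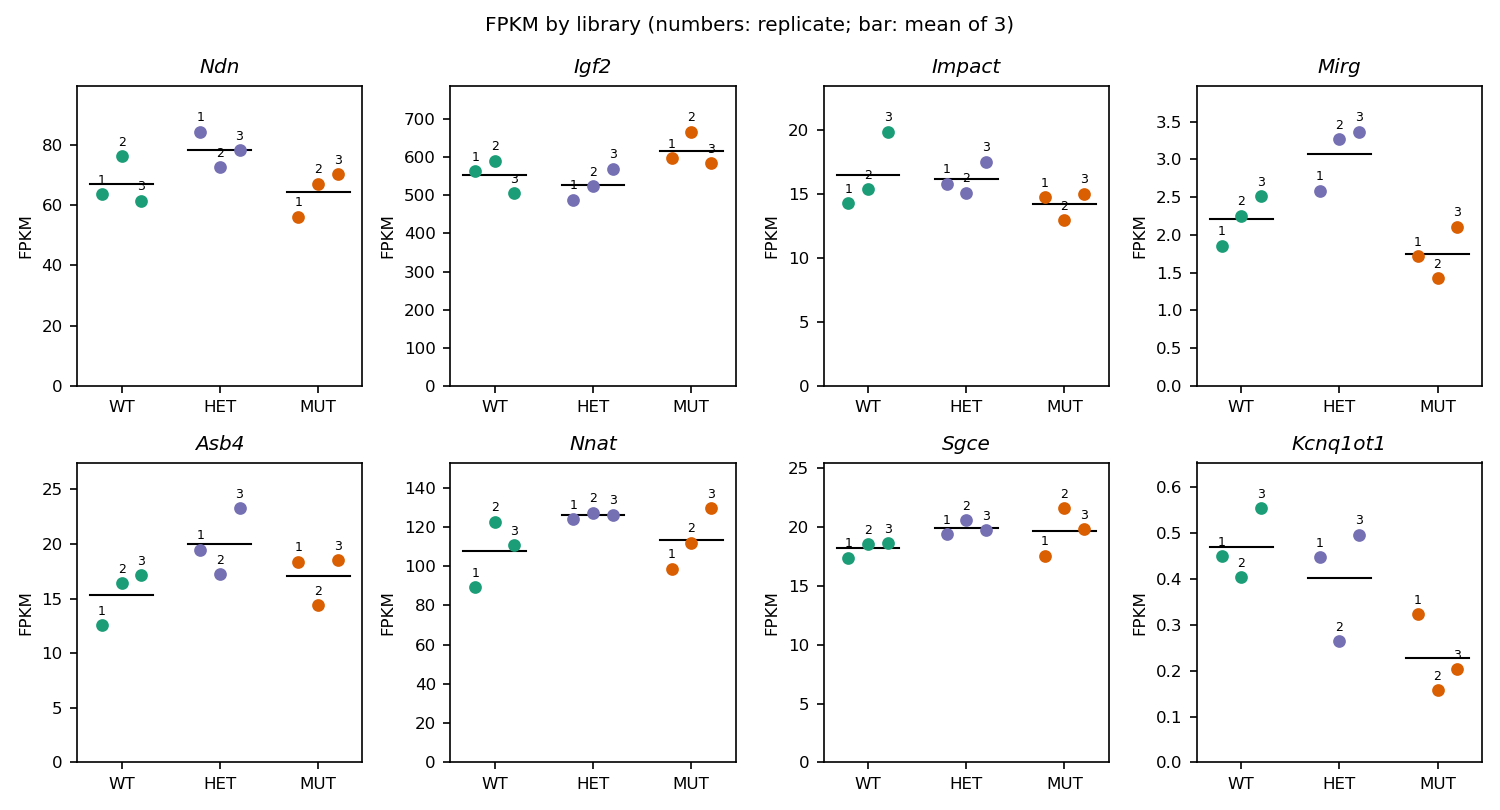
FPKM of 8 imprinted genes by genotype from 0 up, with 1 point per library numbered by replicate and a bar at the mean of 3. The MUT libraries lie below the HET libraries for *Ndn*, *Impact* and *Mirg* and above them for *Igf2*, the HET libraries lie above WT for *Asb4*, *Nnat*, *Sgce* and *Mirg*, and for *Kcnq1ot1* the MUT libraries (0.158 to 0.323) lie below WT (0.404 to 0.554).

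In the *Dlk1*-*Dio3* cluster on chromosome 12, with *Dlk1* at chr12:109452823-109463336, *Meg3* at chr12:109541001-109571726 and *Rian* at chr12:109603940-109661716, libraries of the same genotype lay far apart. *Dlk1*, a paternally expressed membrane protein of the Notch ligand family that marks immature cells, was at 19.7, 17 and 13.4 FPKM in WT, 13.2, 26.7 and 30.5 in HET and 19, 18.3 and 22.4 in MUT. Its highest libraries were HET-3, where muscle markers stood apart, and HET-2, where liver markers did, and their part in this was not tested. *Meg3*, a long non-coding RNA read from the maternal copy, had the highest coefficient of variation of the 22 genes, 37.0%. *Meg3* was at 54.8, 27.7 and 63 FPKM in WT, 28, 37.2 and 67.6 in HET and 43.5, 28 and 32.1 in MUT. *Rian*, which also hosts small nucleolar RNAs, was at 30, 26.1 and 39.5 FPKM in WT, 26.3, 35.1 and 51.2 in HET and 27.5, 28.4 and 29.5 in MUT. HET-3 was the highest library for both, and WT-3 the next.
The difference of MUT from HET was -0.15 ± 0.24 for *Dlk1*, -0.28 ± 0.27 for *Meg3* and -0.34 ± 0.19 for *Rian* (SE, log2; lowest adjusted p = 0.738, limma). Without HET-3 it was 0.07 for *Dlk1* and 0.07 for *Meg3*, and without HET-2 and HET-3 together, a choice made after the data were seen, it was 0.55 for *Dlk1*, 0.27 for *Meg3* and 0.11 for *Rian*, so the direction rests on HET-3 for *Dlk1* and *Meg3* and on HET-2 and HET-3 together for *Rian*. After correction for GC content and transcript length the difference of MUT from HET was larger, -0.19 for *Dlk1*, -0.43 for *Meg3* and -0.56 for *Rian*. Of these only *Rian* had an unadjusted p under 0.05 (limma). In HET against WT the values were 0.40 ± 0.26 for *Dlk1*, -0.14 ± 0.33 for *Meg3* and 0.20 ± 0.22 for *Rian* (SE, log2), and without HET-2 and HET-3 they were -0.30, -0.69 and -0.25. *Rian* was at -0.05 without HET-3 alone, and *Meg3* was at 0.13 without HET-1 and 0.08 without WT-3. The MUT against WT fit, which holds no HET library, gave 0.25 ± 0.15 for *Dlk1* and -0.42 ± 0.28 for *Meg3* (SE, log2; adjusted p = 0.9998 for both, limma), the ends of the range over the 22 genes in that comparison. Both kept their sign with each library left out, but *Meg3* was at -0.77 without WT-2 and -0.19 without WT-3, and *Dlk1* at 0.11 without WT-3. The ratio of *Meg3* to *Dlk1* ran from 1.39 (HET-2) to 4.71 (WT-3).
*Mirg*, the last non-coding RNA of this strand, and *Rtl1*, a retrotransposon-derived gene expressed from the paternal copy, were below the minimum and are given with the other low genes.

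HET-3 was the highest of the 9 libraries for 7 of the 22 imprinted genes past the minimum (31.8%), namely *Grb10*, *Peg3*, *Plagl1*, *Meg3*, *Rian*, *Dlk1* and *Asb4*, and for 3.59% of all loci with a mean of at least 5 FPKM. Of all 34 genes it was the highest for 11. WT-3 was the highest for 4 of the 22 and for 21.2% of those loci. The genes are in part neighbours and share the libraries, so no test was made, and the part of the muscle markers of HET-3 in this was not tested.

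**Figure D4:**
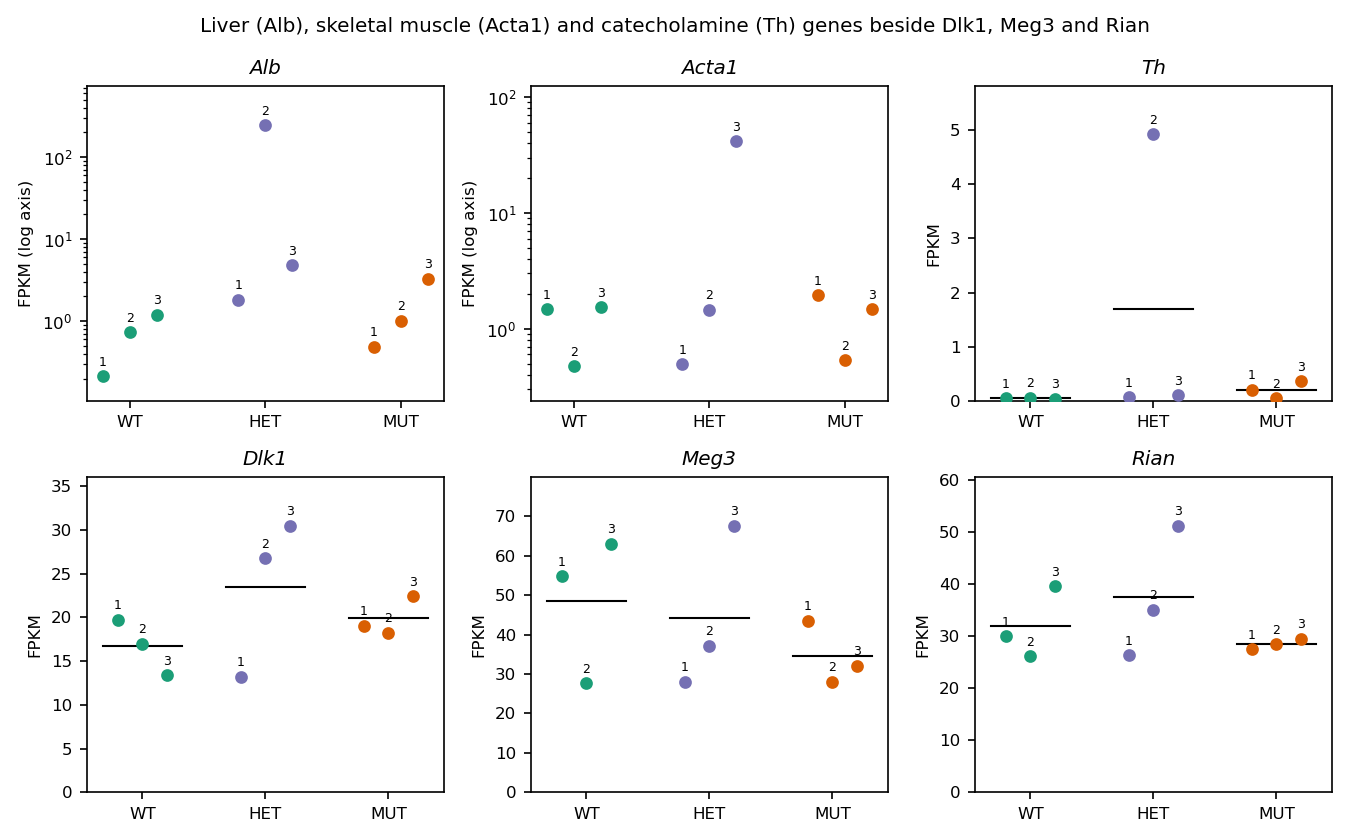
FPKM by genotype, with 1 point per library numbered by replicate, of *Alb* and *Acta1* on log axes and of *Th*, *Dlk1*, *Meg3* and *Rian* on axes from 0, where bars mark the mean of 3. *Alb* is at 244 FPKM in HET-2 and *Acta1* at 41.5 in HET-3, and *Dlk1* is highest in HET-3 (30.5) and HET-2 (26.7).

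In the *Peg3* cluster libraries of the same genotype lay far apart. *Peg3*, a paternally expressed zinc finger gene, was at 68.1, 50.7 and 63.9 FPKM in WT, 37.1, 41 and 71.2 in HET and 67.9, 50.1 and 47.6 in MUT. HET-1 and HET-2 were the lowest libraries and HET-3 the highest. *Zim1*, its maternally expressed neighbour, was at 7.67, 4.53 and 9.88 FPKM in WT, 3.62, 4.97 and 9.79 in HET and 7.09, 5.83 and 4.63 in MUT. *Usp29*, which starts beside *Peg3* as shown above, ranged from 0.239 to 0.487 FPKM and was likewise lowest in HET-1 and HET-2 and highest in HET-3. In HET against WT the difference was -0.33 ± 0.22 for *Peg3* and -0.27 ± 0.31 for *Zim1* (SE, log2; adjusted p = 0.998 for both, limma), and with HET-1 as the only HET library it was -0.69 and -0.80. Without HET-1 it was -0.16 for *Peg3* and -0.005 for *Zim1*, so the size rests on HET-1.

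*Mest* was the steadiest of the 22 genes. It was at 916, 961 and 870 FPKM in WT, 892, 935 and 909 in HET and 933, 887 and 936 in MUT, and its coefficient of variation over the 9 libraries, 3.15%, was the lowest, and the median of the 22 was 12.4% against 11.7% over all loci of at least 5 FPKM. *Mest* and *Copg2* overlap on opposite strands and share a listed span. *Gnas* was at 875, 973 and 779 FPKM in WT, 1007, 1015 and 875 in HET and 937, 865 and 946 in MUT, and its row sums transcripts of different parental origin. Over *H19*, *Gnas*, *Mest*, *Igf2*, *Cdkn1c* and *Grb10* the 18 differences of the 3 comparisons ran from -0.09 to 0.22 on the log2 scale, with intervals reaching from -0.42 to 0.52. *Slc38a4*, a paternally expressed amino acid transporter gene, ranged from 39.6 to 55.4 FPKM.

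Of the 12 members below the minimum, 4 had libraries of 2 genotypes that did not overlap, which was seen only with no or a lower minimum and after their values were known. Of all 9260 loci below the minimum in every genotype and above 0 in a library, 19% did not overlap in at least 1 of the 3 comparisons, and whether 4 of 12 differs from that was not tested. *Mirg*, host of the microRNAs shown above, was at 1.86, 2.25 and 2.51 FPKM in WT, 2.58, 3.27 and 3.37 in HET and 1.71, 1.42 and 2.11 in MUT. HET lay above both WT and MUT, while WT and MUT overlapped. With no minimum its log2 difference of MUT from HET was -0.57 ± 0.14 (SE), with an adjusted p of 0.825 (under 0.05 before adjustment, limma), and that of HET from WT was 0.34 ± 0.13 (SE; adjusted p = 0.998; under 0.05 before adjustment, limma). *Kcnq1ot1*, the paternally expressed non-coding RNA that silences the *Cdkn1c* cluster in cis, was at 0.449, 0.404 and 0.554 FPKM in WT, 0.447, 0.264 and 0.496 in HET and 0.323, 0.158 and 0.203 in MUT.
MUT lay below WT for *Kcnq1ot1* and overlapped HET through HET-2. Its difference of MUT from WT was -0.26 ± 0.06 (SE, log2; adjusted p = 0.9997; under 0.05 before adjustment, limma), which understates the change of so low a value because 1 is added to each FPKM. *Kcnq1ot1* lies opposite *Kcnq1* in the same listed span, so strand was not settled for it. *Zrsr1*, a splicing factor gene within *Commd1*, was at 2.9 to 3.15 FPKM in WT, 2.72 to 2.84 in HET and 2.54 to 2.8 in MUT, and both HET and MUT lay below WT. *Nap1l5*, a gene of the nucleosome assembly family within *Herc3*, was at 0.189 to 0.214 FPKM in WT and 0.228 to 0.28 in MUT, and at 0.68 in HET-2 alone, the library with the liver markers, whose part in this was not tested.
The other low genes overlapped between all genotypes. *Phlda2*, a growth restrainer of the placenta, ranged from 2.83 to 6.37 FPKM with HET-2 the highest, *Slc22a18*, a transporter gene, from 3.01 to 4.5, and *Ascl2*, a transcription factor gene of the trophoblast, from 0.207 to 0.599. *Zdbf2*, a zinc finger gene, ranged from 1.57 to 3.12 FPKM and *Rtl1*, which lies opposite microRNA genes, from 0.0439 to 0.335.

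Neighbours in a cluster were compared over the 9 libraries for the 6 of 9 listed pairs with both means at least 1 FPKM. Pearson's r was 0.52 for *Igf2* and *H19*, 0.28 for *Dlk1* and *Meg3*, 0.79 for *Meg3* and *Rian*, -0.44 for *Peg10* and *Sgce*, 0.07 for *Igf2r* and *Airn* and 0.60 for *Ndn* and *Snrpn*. *Meg3* and *Rian*, read from the same strand and parental copy, gave exact permutation p = 0.0079 (two-sided, adjusted over 6 pairs 0.0474) and Spearman's rho 0.83 (exact permutation p = 0.00827, adjusted 0.0496). The lowest adjusted p of r among the other pairs was 0.264. After centring each gene on its genotype means r was 0.84 (exact permutation within genotypes p = 0.0694, adjusted 0.333), so differences between libraries of 1 genotype are part of it. Without HET-3 and WT-3, the libraries farthest from the median of *Meg3*, r was 0.40 (exact permutation p = 0.376). Leaving them out narrows the range of *Meg3*, which tends to lower r, so this run cannot settle whether the relation rests on them. Of 9977 loci of at least 5 FPKM, 3.54% had an r with *Meg3* at least as high. For *Igf2* and *H19* rho was 0.20 and r was -0.47 without HET-1 and MUT-2.

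**Figure D5:**
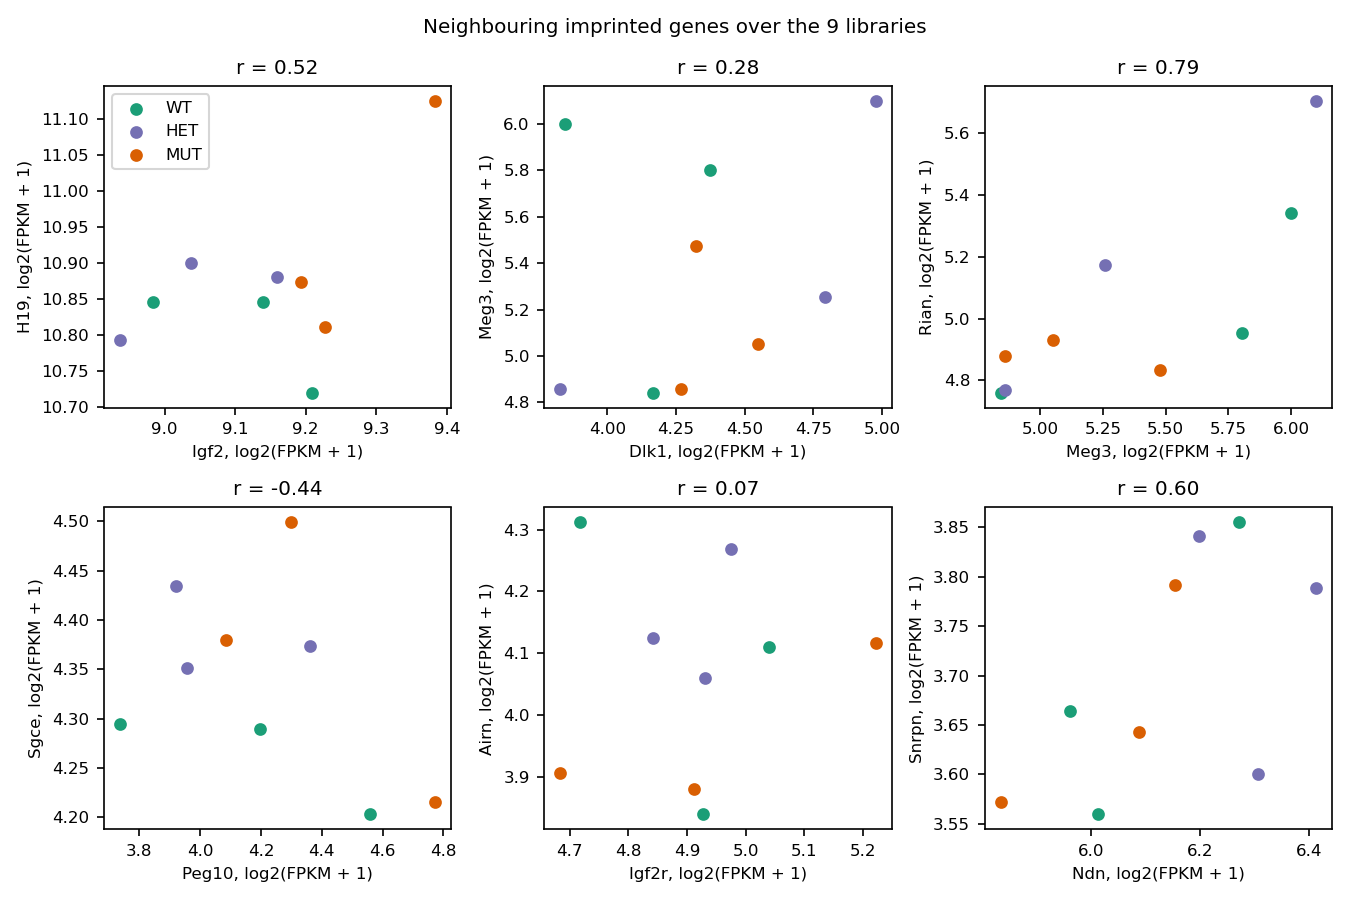
Levels on the log2(FPKM + 1) scale of 6 pairs of neighbouring imprinted genes, with 1 point per library coloured by genotype (green WT, purple HET, orange MUT) and Pearson's r above each panel. *Meg3* and *Rian* have the highest r (0.79), with HET-3 and WT-3 at the upper right.

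Lists of related genes showed no call after adjustment in any comparison. Of 13 measured genes for the upkeep of imprints and DNA methylation, 1 had an unadjusted p under 0.05 in MUT against HET (6.31% over all loci) and 0 in the other comparisons. The MUT libraries lay wholly above those of HET for 1 of the 13 and wholly below for 1. Over all loci these shares were 5.19% and 4.5%, and whether the list differs from that was not tested. *Zfp57*, which keeps imprints methylated, was at 15.7, 19.5 and 22.6 FPKM in WT, 20.6, 20.6 and 20.1 in HET and 14.4, 10.8 and 18.4 in MUT, below HET in every MUT library. Its log2 difference of MUT from HET was -0.49 ± 0.16 (SE), with an adjusted p of 0.738 (under 0.05 before adjustment, limma). *Dnmt3a*, at 28.7 to 30.9 FPKM in HET and 31.7 to 39.6 in MUT, was above HET in every MUT library. It differed by 0.22 ± 0.11 (SE, log2; adjusted p = 0.738, limma). The list's median was -0.09 in MUT against HET, and its most abundant genes, *Trim28*, a co-repressor that binds *Zfp57*, and *Uhrf1*, which guides *Dnmt1* to replicated DNA, had means of 227 and 79.2 FPKM.
Of 13 measured genes of IGF signalling 10 had a positive log2 difference of MUT from HET, and the median was 0.13. In 4, *Igf1r*, *Irs2*, *Igfbp5* and *Igf2bp2*, all MUT libraries were above all HET libraries. Over all loci 45.9% had a positive difference and 5.19% lay wholly above, and whether the list differs from that was not tested. *Irs2*, a docking protein of the insulin and IGF receptors, differed by 0.36 ± 0.14 (SE, log2; adjusted p = 0.738; under 0.05 before adjustment, limma). *Igfbp4* and *Igfbp7*, binding proteins for IGFs, were the most abundant at 290.5 and 197 FPKM.
Of 39 further genes reported as imprinted in some mouse tissue, 21 could be tested in MUT against HET and 22 in each other comparison. Of the 21, 6 had a positive log2 difference of MUT from HET (45.9% over all loci), and the median was -0.06 (-0.02 over all loci). All MUT libraries were below all HET libraries for 1, *H13*, at 33.5 to 40.2 FPKM in MUT and 42.4 to 43.8 in HET, against 4.5% of all loci. *H13* differed by -0.23 ± 0.11 (SE, log2; adjusted p = 0.738, limma), and for none of the list were they wholly above. *Ago2*, a core protein of microRNA silencing, was higher in MUT than in HET by 0.79 ± 0.29 (SE, log2; adjusted p = 0.738; under 0.05 before adjustment, limma) with overlapping libraries, from 5.06 to 11.5 FPKM in HET and 8.09 to 17.1 in MUT. *Dcn*, a matrix proteoglycan of stroma, was higher in HET than in WT by 0.39 ± 0.15 (SE, log2; adjusted p = 0.998; under 0.05 before adjustment, limma). *Slc22a2*, a renal cation transporter gene, differed in MUT from WT by -0.65 ± 0.29 (SE, log2; adjusted p = 0.9998; under 0.05 before adjustment, limma). *Slc22a2* passed the minimum only through WT, with means of 5.45 FPKM in WT and 3.24 in MUT, and its libraries overlapped. Its p is therefore not read as a result. *Cd81*, a tetraspanin gene, and *Commd1*, which surrounds *Zrsr1*, were the most abundant at 243 and 118 FPKM.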

How the data were processed

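RNA of 9 whole E15.5 kidneys (TRIzol, TruSeq Stranded mRNA) was measured. The authors aligned reads with STAR to mm10 and made the deposited FPKM per locus with Cufflinks and Cuffdiff. Versions, annotation and the strand setting are not given in the sources used here, and the number of reads is unknown. Joined loci were matched by any of their symbols. FPKM were taken as log2(FPKM + 1), loci whose mean reached 5 FPKM in 1 or both genotypes were kept, and limma 3.58.1 (R 4.3.3; lmFit, eBayes with trend) was fitted to the 6 libraries of each comparison, with Benjamini-Hochberg adjustment over all loci and a threshold of 0.05. The fit was tested on simulated data. Ratios and correlations were tested by exact permutation (scipy 1.17.1). Gene positions are from GENCODE M21 (GRCm38).
The 34 genes, the related lists and the markers were chosen with earlier results of these data known. Per-library values are given for genes past the minimum with non-overlapping libraries or an unadjusted p under 0.05 and for the 6 highest genes. They were added for *Peg10*, *Dlk1*, *Meg3*, *Rian*, *Peg3*, *Zim1*, *Mirg* and *Kcnq1ot1* after their values were seen.
Alternatives were another pseudocount (0.1 or 3), another minimum (1 FPKM or none), median-ratio or quantile scaling, 1 fit of all 9 libraries, a replicate block, no trend, each library left out and, chosen after seeing the data, a correction for GC content and length and leaving out HET-2 and HET-3.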

Additional observations from a re-analysis of the deposited data

How the results depend on the processing

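No imprinted gene had an adjusted p under 0.05 in any alternative run, the lowest being 0.228 in MUT against HET, 0.857 in MUT against WT and 0.30 in HET against WT (limma). The sign of the difference held in all alternatives for 8, 12 and 7 of the 22 genes in that order. For genes whose libraries do not overlap, leaving libraries out cannot turn the sign. The number of loci past the threshold, 0 in each comparison, was 0 to 3 with each library left out in turn in each comparison. With HET-2 and HET-3 left out it was 5 in MUT against HET and 46 in HET against WT, where the lone HET library is assumed to vary like the others. Deviations from the genotype means of same-numbered libraries correlated at -0.32, 0.06 and -0.14 in MUT and HET, 0.56, -0.26 and -0.04 in MUT and WT and -0.19, -0.05 and 0.17 in HET and WT (numbers 1 to 3). In no comparison were all 3 over 0.1, so the numbers were not taken to pair the libraries. With the replicate block 0 loci passed in each comparison, and 494, 201 and 233 loci had an unadjusted p under 0.05, against 636, 65 and 108 without it.
The number of imprinted genes with non-overlapping libraries was 3 to 8 in MUT against HET, 0 to 4 in MUT against WT and 3 to 7 in HET against WT with each library left out, which leaves groups of 2 that overlap less often. The share of all loci was not worked out for these runs, the other minimums or the correction. The counts are therefore not read as a result about these genes. Of loci above 0 but below the minimum in both genotypes, 8.32% did not overlap in MUT against WT and 8.04% in HET against WT. Of the 12 low members 3 and 2 did not overlap. In MUT against WT the number of imprinted genes without overlap was 1 with a minimum of 1 FPKM and 3 with none. In HET against WT it was 5 with either and 1 after the correction for GC content and length. Without HET-2 and HET-3 it was 14 of 22 in MUT against HET and 10 of 22 in HET against WT, where a lone HET library leaves 50.4% and 43.5% of all loci without overlap.
Signs turned in MUT against HET without HET-3 for *Meg3* (0.0702; range over single libraries left out -0.55 to 0.07) and *Dlk1* (0.0696; -0.50 to 0.07), without HET-2 and HET-3 for *Rian* (0.11), *Meg3* (0.27) and *Dlk1* (0.55), and without MUT-2 for *H19* (-0.0152; -0.02 to 0.14). In HET against WT they turned without HET-2 and HET-3 for *Dlk1* (-0.30) and *Rian* (-0.25), without HET-3 for *Rian* (-0.0469; -0.05 to 0.42), and for *Meg3* after the GC and length correction (0.0083), without HET-1 (0.13) or without WT-3 (0.08; -0.50 to 0.13). The cause was not tested.
Pearson's r turned without the 2 libraries farthest from the median for *Igf2* and *H19* (-0.467), *Dlk1* and *Meg3* (-0.36) and *Igf2r* and *Airn* (-0.332), and without HET-2 and HET-3 for *Dlk1* and *Meg3* (-0.101). For *Meg3* and *Rian* it lost its adjusted threshold when centred (0.842), without the 2 farthest libraries (0.405) and without HET-2 and HET-3 (0.779).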
